A study of Mus musculus with 3 samples.

Results

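The RGS genes, which encode regulators of G protein signalling, were examined in RNA-seq of cells sorted from mouse lung. The members were the 10 rows of the deposited count table whose gene symbol is Rgs1, Rgs2, Rgs3, Rgs4, Rgs5, Rgs10, Rgs14, Rgs16, Rgs18 or Rgs19, out of 48709 genes in all. The other 11 RGS genes of the table were set beside them. There is 1 group, WT, of 3 libraries, labelled as smooth muscle cells of the lung. Its animals had creERT2, a tamoxifen-dependent Cre recombinase, under smooth muscle actin control, together with tdTomato, a red fluorescent protein. At 8 weeks of age they were given 75 mg/kg tamoxifen daily for 10 days, and 2 months later the lungs were digested and the cells sorted. The marker or gate of the sort is not stated in the labels. No second group was given, so levels within these libraries are described, and the labels do not say that each library came from its own mouse. The spread between libraries may therefore be technical.

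RGS proteins bind the active, GTP-loaded alpha subunit of a heterotrimeric G protein and speed up its GTP hydrolysis, which ends the signal of a receptor. They share an RGS domain and are grouped by what surrounds it. Proteins of the R4 group are mostly small, those of the R7 group pair with the beta subunit Gnb5, the R12 group holds Rgs10, Rgs12 and Rgs14, and the RZ group carries a cysteine string. In smooth muscle, RGS proteins limit contraction driven by Gq-coupled receptors, and in lymphocytes they limit the response of Gi-coupled chemokine receptors.

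The summed markers of the labelled cell type were low beside those of epithelium, T cells and B cells. The 8 smooth muscle markers summed to 85.5, 106 and 79.2 CPM (counts per 1000000 counts) in libraries 1, 2 and 3, and Acta2, smooth muscle actin, had 11.2, 17.1 and 11.3 CPM. The 7 T cell markers summed to 857, 852 and 658 CPM and the 6 B cell markers to 560, 843 and 1125 CPM. The 5 neutrophil markers summed lower than those of smooth muscle, to 34.1, 16.0 and 19.6 CPM. The 4 airway epithelial markers summed to 13583.7, 2733.7 and 7818.9 CPM and the 5 alveolar ones to 2136.2, 425 and 521 CPM. Of the airway sums, the club cell gene Scgb1a1 alone made up 13191.7, 2631.9 and 7640.9 CPM. Depth was similar, at 16877297 to 18896263 counts per library. In such a bulk sample, fewer cells of a type and less RNA per cell cannot be told apart.

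Among the 10 members, 6 reached a mean of 10 CPM, and all 10 reached a mean of 1 CPM. Over 22005 nuclear protein-coding genes the same shares were 35.8% and 59.4%. The members fell into 2 ranges separated by a gap. Rgs1, Rgs2, Rgs3, Rgs10, Rgs14 and Rgs19 had means of 26.7 to 121 CPM, and Rgs4, Rgs5, Rgs16 and Rgs18 had means of 1.15 to 5.98 CPM.

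**Figure D1:**
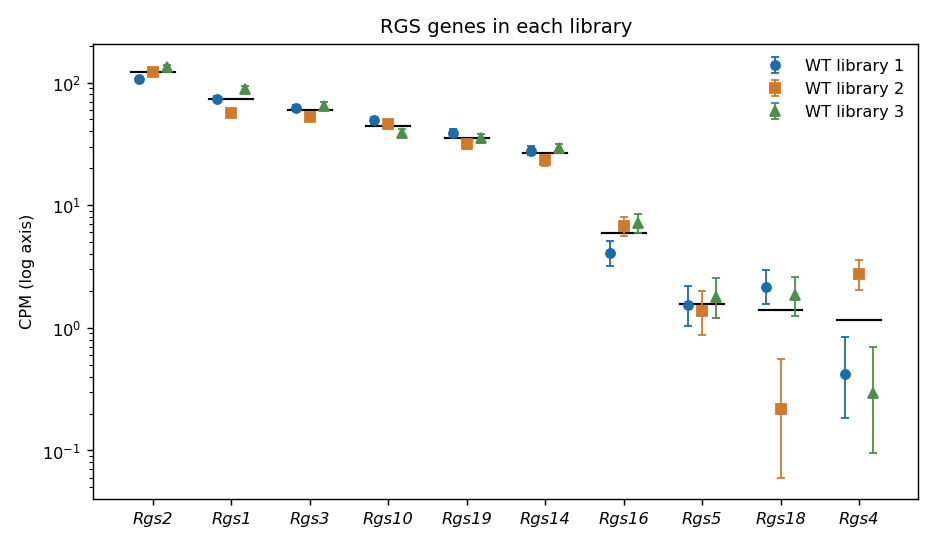
CPM (log axis) of the 10 members in WT libraries 1, 2 and 3, with 95% exact Poisson intervals of each library and a black line at the mean of 3. The 6 members on the left lie above 20 CPM in every library, and Rgs18 and Rgs4 are the members whose libraries lie far apart.

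Within the R4 group, Rgs2 was the most abundant. Rgs2 favours the Gq alpha subunit, and mice that lack it are hypertensive. It had 107, 123 and 134 CPM in libraries 1, 2 and 3, a mean of 121 ± 13.9 (SD, n = 3), from 2014, 2251 and 2265 counts. The 3 values lay within 1.26-fold of each other. Rgs2 was the 1 member with a mean of at least 100 CPM, a level that 5.89% of nuclear protein-coding genes reached.

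Rgs1, which dampens chemokine receptor signals in B and T cells, had 73.2, 56.2 and 89.2 CPM, a mean of 72.8 ± 16.5 (SD, n = 3). Library 2 was the lowest and library 3 the highest, 1.59-fold apart. Rgs3, which is made as several long and short forms, had 61.7, 52.1 and 64.8 CPM, a mean of 59.5 ± 6.61 (SD, n = 3). Of the 50-base words in Rgs3 transcripts, 11.4% also occur in the processed pseudogene Gm5763, which was counted separately at 333, 277 and 306 counts, so reads may have been split between the 2 genes. No other member shared more than 0.637% of its words with another gene.

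Rgs16, which T cells switch on when activated and which acts on Gi and Gq, had 4.07, 6.76 and 7.11 CPM. Library 1 was the lowest and the other 2 libraries were close. Its annotated exons overlap the antisense gene Gm28513 over 10.1% of their length. Rgs16 had 77, 124 and 120 counts, against 0, 3 and 5 counts of Gm28513, and without knowledge of the strand setting their reads cannot be told apart there. The other 9 members overlap no exon of another gene in the annotation.

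The members best known from mural cells, the smooth muscle cells and pericytes around vessels, were close to the bottom of the range. Rgs5, a widely used pericyte gene, had 29, 25 and 30 counts, equal to 1.53, 1.36 and 1.78 CPM and a mean of 1.56 ± 0.209 (SD, n = 3). Its 95% intervals ran from 0.881 to 2.54 CPM over the libraries, so the 3 values are not distinguishable at this depth. The 7 pericyte genes listed beside it had means of 1.02 to 39.1 CPM, with Higd1b and Cox4i2 near Rgs5 at 1.02 and 1.53 CPM. Abcc9, a potassium channel subunit, had 22.3, 57.9 and 37.0 CPM, and Pdgfrb, the receptor for platelet-derived growth factor B, had 16.2, 26.3 and 24.8 CPM. Per kilobase of exon, the log2 ratio of Rgs5 to Pdgfrb was -3.55 ± 0.43 and that to Abcc9 was -3.67 ± 0.79 (SD, n = 3), below 0 in each library. Per kilobase of coding sequence these ratios were -1.22 and -1.46, still below 0 in each library. Cspg4, the pericyte proteoglycan NG2, was low like Rgs5, with 0.900, 4.09 and 4.44 CPM, and the log2 ratio of Rgs5 to it per kilobase of exon was 0.68 ± 1.29, within its SD of 0. Per kilobase of coding sequence that ratio was 2.97.

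Rgs4, which acts on Gi and Gq and is found in neurons and in smooth muscle, had 8, 50 and 5 counts, equal to 0.423, 2.72 and 0.296 CPM. Library 2 held 9.19 times the level of library 3, and its 95% interval began at 2.02 CPM, above the upper bounds of 0.834 and 0.691 CPM in libraries 1 and 3. Without library 2 the mean of Rgs4 was 0.360 CPM, against 1.15 CPM with it. Library 2 also had the highest sum of the 7 pericyte markers, at 64.7, 121.5 and 91.7 CPM in libraries 1, 2 and 3, of the 8 smooth muscle markers given above, and of the 4 red cell markers, at 424, 1915.4 and 644 CPM. Not every gene followed these sums. Cox4i2 of the pericyte list and Smtn of the smooth muscle list were highest in library 1, and the pericyte genes Higd1b and Cspg4 in library 3. Of the defining smooth muscle genes, Cnn1 had 0, 7 and 5 counts. Their part in the level of Rgs4 was not tested.

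Rgs18, a regulator of platelets and megakaryocytes, went the other way. It had 41, 4 and 31 counts, equal to 2.17, 0.218 and 1.84 CPM, and library 2 was the lowest by 9.96-fold against library 1. Platelet markers were near 0 in all 3 libraries, with sums of 3.86, 3.60 and 7.41 CPM over 6 genes. Ppbp, a platelet chemokine, had 0, 0 and 1 counts, and Itga2b, the platelet integrin, was the 1 platelet gene with a mean above 1 CPM, at 3.38 ± 0.943 (SD, n = 3). The 7 macrophage and monocyte markers summed to 877, 281 and 367 CPM, of which the lysozyme gene Lyz2 made up 704, 189 and 235 CPM, whereas Itgam had 18.9, 25.9 and 37.2 CPM. Like Rgs18, 6 of the 13 marker lists were lowest in library 2 by their sums, those of macrophages and monocytes, neutrophils, platelets, endothelium, alveolar epithelium and airway epithelium. For platelets the sums of libraries 1 and 2 were close, and single genes differed. Itga2b was lowest in library 1, at 2.65, 3.05 and 4.44 CPM, whereas Gp1bb had 3, 0 and 24 counts. Csf3r of the neutrophil list was lowest in library 3, at 12.5, 8.17 and 8.06 CPM. Their part in the level of Rgs18 was not tested.

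The R12 and RZ groups held 3 members, and all 3 were in the upper range. Rgs10, a small protein known from microglia, macrophages and platelets that acts on Gi, had 49.2, 45.7 and 38.8 CPM, a mean of 44.5 ± 5.30 (SD, n = 3). Rgs14, which combines an RGS domain with a GoLoco motif that holds inactive Gi and with a Ras-binding region, had 27.8, 23.2 and 29.1 CPM, a mean of 26.7 ± 3.13 (SD, n = 3). Rgs19, the RZ member, had 38.6, 31.4 and 35.1 CPM, a mean of 35.1 ± 3.60 (SD, n = 3). Each of the 3 stayed within 1.27-fold over the libraries.

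Levels of different genes were compared per kilobase of the union of their exons. On this scale Rgs2 had 33.4 ± 3.82 CPM per kilobase, Rgs10 26.0 ± 3.10, Rgs19 15.7 ± 1.61, Rgs1 10.5 ± 2.38, Rgs14 6.30 ± 0.738 and Rgs3 5.51 ± 0.612 (SD, n = 3). Rgs16 followed at 2.56 ± 0.710 CPM per kilobase, and Rgs18, Rgs4 and Rgs5 were below 1. Of the 9 pairs of neighbours in this order, 7 kept their order in every library. The closest of these was Rgs14 over Rgs3, with a log2 ratio of 0.19 ± 0.011. That of Rgs2 over Rgs10 was 0.36 ± 0.34 and barely exceeded its SD. Rgs18 over Rgs4 and Rgs4 over Rgs5 did not keep their order, with log2 ratios of 1.06 ± 3.55 and -0.59 ± 1.90. An exact permutation test that flips the signs of 3 ratios has a smallest p of 0.25, and the ratios are given without one.

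The order depends on which length is used. Per kilobase of the longest annotated transcript Rgs10 came first at 50.6 ± 6.03 CPM per kilobase and Rgs2 second at 40.1 ± 4.59 (SD, n = 3), and 4 of 9 neighbours kept their order. The log2 ratio of Rgs2 to Rgs10 was then -0.34 ± 0.34. Per kilobase of coding sequence Rgs2 led again and Rgs1 came second, at 191 ± 21.9 and 116 ± 26.3 CPM per kilobase. The annotated exons of Rgs1 together cover all 6947 bases of the gene, whereas its longest coding sequence has 627 bases. Rgs16, Rgs18, Rgs4 and Rgs5 filled the last 4 places with each of the 3 lengths.

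**Figure D2:**
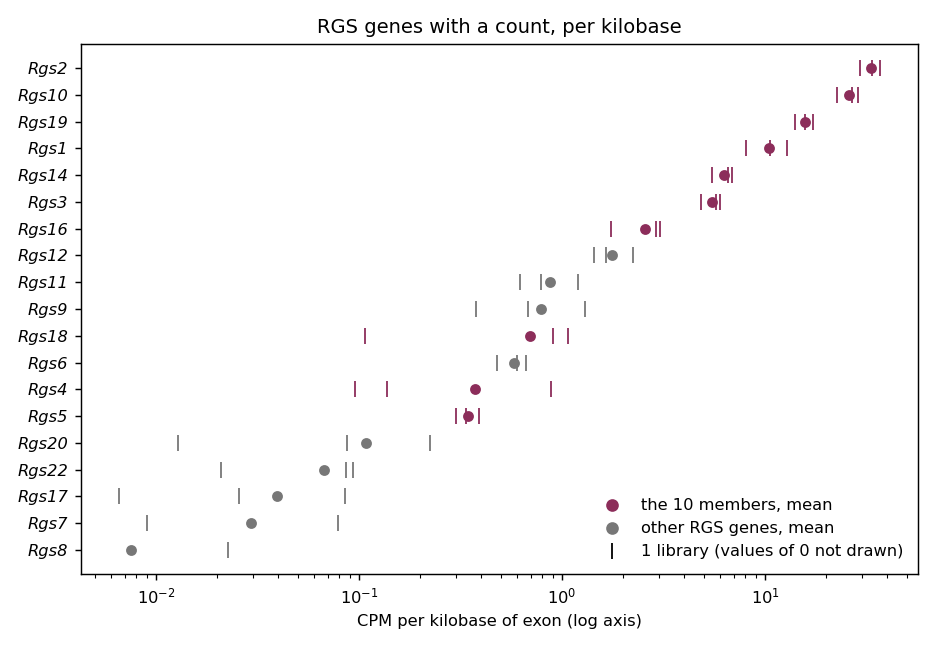
CPM per kilobase of exon (log axis) of the 19 RGS genes with a count; dots are means of the 3 libraries, ticks are single libraries and values of 0 are not drawn. The first 7 places are held by members, and Rgs12 is the highest of the other RGS genes at 1.77.

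Of the members, 6 lie on chromosome 1, and their neighbours there are other RGS genes. A stretch of 776 kb (build GRCm38, chr1:143999338-144775435) holds 5 protein-coding genes, all of them RGS genes of the R4 group on the minus strand. In order they are Rgs2, Rgs13, Rgs1, Rgs21 and Rgs18. Their levels alternated along the stretch. Rgs2 and Rgs1 were among the most abundant RGS genes, whereas Rgs13, known from germinal centre B cells and mast cells, and Rgs21, known from taste cells, had no count in any library. The floor for such a gene, 3 counts, equals 0.159, 0.163 and 0.178 CPM in libraries 1, 2 and 3, and the 95% exact Poisson intervals end at 0.195, 0.201 and 0.219 CPM. Against a floor of 3 counts per library, Rgs1 was at least 81.9-fold higher than Rgs13 per kilobase, and Rgs2 at least 306-fold. Against the same floor Rgs2 was at least 729-fold higher than Rgs21. The interval ends lie above this floor, so these folds are not 95% lower bounds. Within the stretch, Rgs2 exceeded Rgs1 by a log2 ratio of 1.69 ± 0.32 per kilobase of exon (SD, n = 3), in each library, and by 0.74 per kilobase of coding sequence. Rgs18, at the far end, had 0.693 ± 0.514 CPM per kilobase of exon (SD, n = 3).

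**Figure D3:**
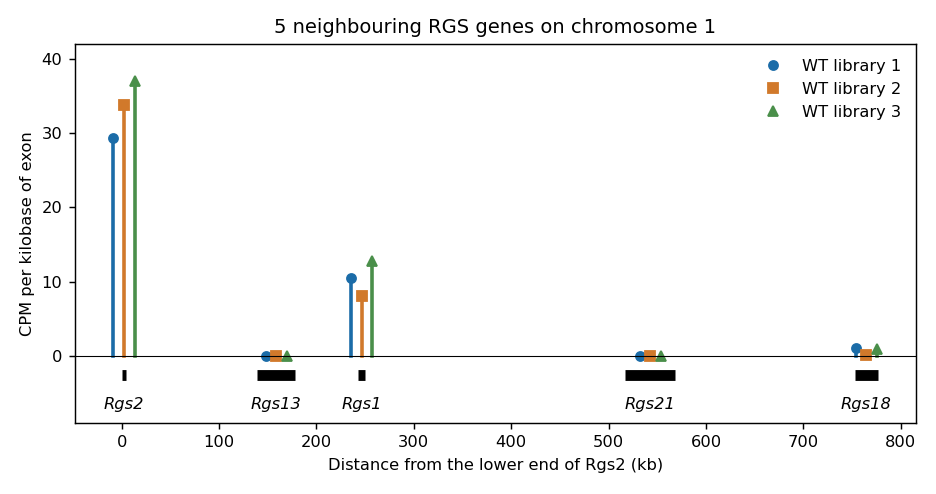
CPM per kilobase of exon of 5 neighbouring RGS genes on chromosome 1 against the distance from the lower end of Rgs2; black bars are the genes, and the values of the 3 libraries are drawn 11 kb apart at the middle of each gene for legibility. Rgs2 and Rgs1 stand at 29.4 to 37.0 and 8.09 to 12.8, and Rgs13 and Rgs21 between and beyond them at 0.

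Another 2 pairs of RGS genes adjoin on the same chromosome. Rgs16 shares a stretch of 92.4 kb with Rgs8, known from Purkinje cells, and had the counts given above, against 0, 4 and 0 counts of Rgs8. Rgs5 and Rgs4 lie 45.7 kb apart on opposite strands. In libraries 1 and 3 Rgs5 was above Rgs4 per kilobase, with log2 ratios of Rgs4 to Rgs5 of -1.30 and -2.03, and in library 2 Rgs4 was above Rgs5, with 1.55. The other members lie apart, with Rgs3 on chromosome 4, Rgs10 on 7, Rgs14 on 13 and Rgs19 on 2.

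Promoter sequences of 300 bases, from 250 before to 50 after the annotated start, were found in the RefSeq table of build GRCm38.p6 for 7 of the 10 members, with 10 promoters in all. Those of Rgs2 and Rgs10, the highest members per kilobase, of Rgs16, next below the 6 highest, and of Rgs4 and Rgs5, the lowest ones, are shown to set the sequence at the ends of the order side by side. Rgs3 and Rgs19, which have several promoters each, are given by their counts. Capitals mark matches on either strand to the CCAAT box (CCAAT), the TATA box (TATAAA), the cAMP response element half-site (TGACG) and the GC box (GGGCGG). The CArG box, the site of serum response factor, was searched as well. Sequences run 5′ to 3′ on the strand of the gene.
Rgs2 (chr1:144004100-144004399, minus strand): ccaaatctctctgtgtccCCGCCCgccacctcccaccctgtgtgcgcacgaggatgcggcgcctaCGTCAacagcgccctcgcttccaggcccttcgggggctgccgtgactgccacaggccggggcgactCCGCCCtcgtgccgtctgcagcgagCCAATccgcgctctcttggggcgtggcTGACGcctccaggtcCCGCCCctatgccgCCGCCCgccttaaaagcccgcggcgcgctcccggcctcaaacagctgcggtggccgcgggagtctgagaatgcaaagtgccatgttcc
Rgs10 (chr7:128418123-128418422, minus strand): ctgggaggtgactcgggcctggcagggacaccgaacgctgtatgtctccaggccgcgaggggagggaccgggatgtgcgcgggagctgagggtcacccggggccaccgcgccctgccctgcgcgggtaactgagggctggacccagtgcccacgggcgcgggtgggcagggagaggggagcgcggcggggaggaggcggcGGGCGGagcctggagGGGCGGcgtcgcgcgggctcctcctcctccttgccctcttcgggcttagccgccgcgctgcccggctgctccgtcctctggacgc
Rgs16 (chr1:153740103-153740402, plus strand): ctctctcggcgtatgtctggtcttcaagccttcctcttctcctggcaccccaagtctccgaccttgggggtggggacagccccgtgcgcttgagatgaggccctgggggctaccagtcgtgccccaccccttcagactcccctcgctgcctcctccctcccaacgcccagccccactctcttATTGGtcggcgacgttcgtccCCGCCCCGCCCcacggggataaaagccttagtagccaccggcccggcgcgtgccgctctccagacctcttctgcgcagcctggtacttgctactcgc
Rgs4 (chr1:169747593-169747892, minus strand): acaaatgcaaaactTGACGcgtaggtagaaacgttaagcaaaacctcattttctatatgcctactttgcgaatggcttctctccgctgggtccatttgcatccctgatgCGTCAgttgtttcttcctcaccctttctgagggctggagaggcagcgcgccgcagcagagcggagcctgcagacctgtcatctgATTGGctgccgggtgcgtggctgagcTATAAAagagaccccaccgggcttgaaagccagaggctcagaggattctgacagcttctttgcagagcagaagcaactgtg
Rgs5 (chr1:169655251-169655550, plus strand): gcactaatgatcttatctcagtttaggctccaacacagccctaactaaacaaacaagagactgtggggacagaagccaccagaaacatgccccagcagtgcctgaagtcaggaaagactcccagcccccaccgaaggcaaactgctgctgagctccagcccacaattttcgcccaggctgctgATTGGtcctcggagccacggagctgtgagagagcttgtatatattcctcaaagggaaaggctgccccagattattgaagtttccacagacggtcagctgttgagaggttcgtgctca

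The CpG content of the promoters did not strictly follow the order of the levels. Rgs2 had 33 CpG and Rgs10 34, Rgs16 had 22, Rgs4 13 and Rgs5 6, where the median over 32851 promoters of the table was 7, with quartiles of 3 and 20. The 3 promoters of Rgs19 had 27, 37 and 4 CpG. Rgs3, at a level of 5.51 CPM per kilobase, had 4 and 9. A CCAAT box occurs in the promoters of Rgs2, Rgs4, Rgs5 and Rgs16 and in 37.4% of all promoters of that length. A TATA box begins 31 bases before the start in Rgs4 and 100 and 177 bases before it in the 2 promoters of Rgs3, and 13.6% of all promoters hold one. Half-sites of the cAMP response element occur in Rgs2 and Rgs4, with 2 in each, and in 20.8% of all promoters. GC boxes occur in Rgs2, Rgs10 and Rgs16 among those shown, where the 2 boxes of Rgs16 overlap, and in 35.7% of all promoters. The 2 promoters of Rgs3 hold 0 and 1 GC boxes and the 3 of Rgs19 hold 1, 2 and 0. None of the members' 10 promoters holds a CArG box, and 1.63% of all promoters do. A match is a run of letters and not a shown binding site.

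The libraries were then compared with each other, gene by gene. Counts of 9 of the 10 members differed between the 3 libraries beyond counting error, where 70.0% of all genes tested did. Among nuclear protein-coding genes the share was 75.5% with at least 100 counts and 80.9% with at least 1000 counts, so the members' count is near the background. Of the members, 6 have at least 1000 counts and 3 have fewer than 100. The 9 members also passed with DESeq2 size factors, with plain library totals, with no minimum above 1 count and with a minimum of 50 counts, where 70.1%, 72.1%, 53.3% and 73.6% of all genes did. The lowest adjusted p of the chi-square test of homogeneity was that of Rgs1, at 1.08e-19, and the next those of Rgs4, at 7.72e-13, and Rgs10, at 9.01e-11. Rgs5 did not pass, with an adjusted p of 0.799 at 84 counts in all. Differences in the abundant members were small in size, with the highest library 1.23 to 1.59 times the lowest. Rgs4 and Rgs18, at 9.19-fold and 9.96-fold, had the widest ranges of the members, from 63 and 76 counts. The edgeR biological coefficient of variation was 0.140 for Rgs2 and 0.175 for Rgs1, against a common value of 0.266 over 16608 genes. It was 0.155 to 0.184 for Rgs3, Rgs10, Rgs14 and Rgs19 and 0.305 and 0.324 for Rgs16 and Rgs5, and Rgs4 and Rgs18 were too low for the expression filter.

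Library 2 decided several of these calls. Without it Rgs4 had an adjusted p of 0.499 and Rgs18 of 0.327, and Rgs1, Rgs2, Rgs10, Rgs16 and Rgs19 still passed, where 53.4% of all genes did. Without library 3 the 9 members passed, beside 56.8% of all genes. Without library 1 the calls were Rgs1, Rgs3, Rgs4, Rgs10 and Rgs18, and Rgs2 and Rgs16 had adjusted p of 0.921 and 0.859 in the chi-square test, where 38.2% of all genes were called.

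Across libraries, 6 of the 10 members were lowest in library 2, in CPM and with each of 3 other scalings. Which library was highest depended on the scaling, with 6 members highest in library 3 by CPM and 3 after TMM scaling. Rgs1 was lowest in library 2 and highest in library 3 under both, with log2 deviations from its own mean in CPM of -0.35 and 0.32. Rgs3 and Rgs14 were lowest in library 2, at -0.19 and -0.20, but after TMM scaling their highest library was 1 and not 3. Rgs2 and Rgs16 were lowest in library 1, at -0.18 and -0.51. The sum of the 12 immediate early genes, among them Junb and Egr1, was also lowest there. It was 2382.4, 3693.5 and 3448.7 CPM in libraries 1, 2 and 3. Of these genes Dusp1 was highest in library 1, at 196.3, 192.8 and 193.3 CPM, and Jun had 316.0, 368.7 and 322.9 CPM. Of the 13 marker lists 5 were lowest in library 1 too, those of B cells, natural killer cells, fibroblasts, pericytes and red cells, with deviations of -0.53, -0.58, -0.71, -0.47 and -0.93. Rgs10 was highest in library 1 and lowest in library 3, at 0.15 and -0.19. The T cell and smooth muscle markers had their lowest sums in library 3. Of the T cell genes, Cd28 was lowest in library 1 and the others in library 3. By CPM most smooth muscle genes did not follow their sum. Acta2, Myh11, Cnn1, Des, Actg2 and Lmod1 were lowest in library 1, Smtn in library 2 and Tagln in library 3. Some of these were near ties, with Acta2 at 11.17 and 11.32 CPM and Myh11 at 20.22 and 20.56 CPM in libraries 1 and 3. The listed genes and sums beside the members were compared by CPM only, and their lowest library may change with the scaling. The part of cell composition in these differences was not tested.

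**Figure D4:**
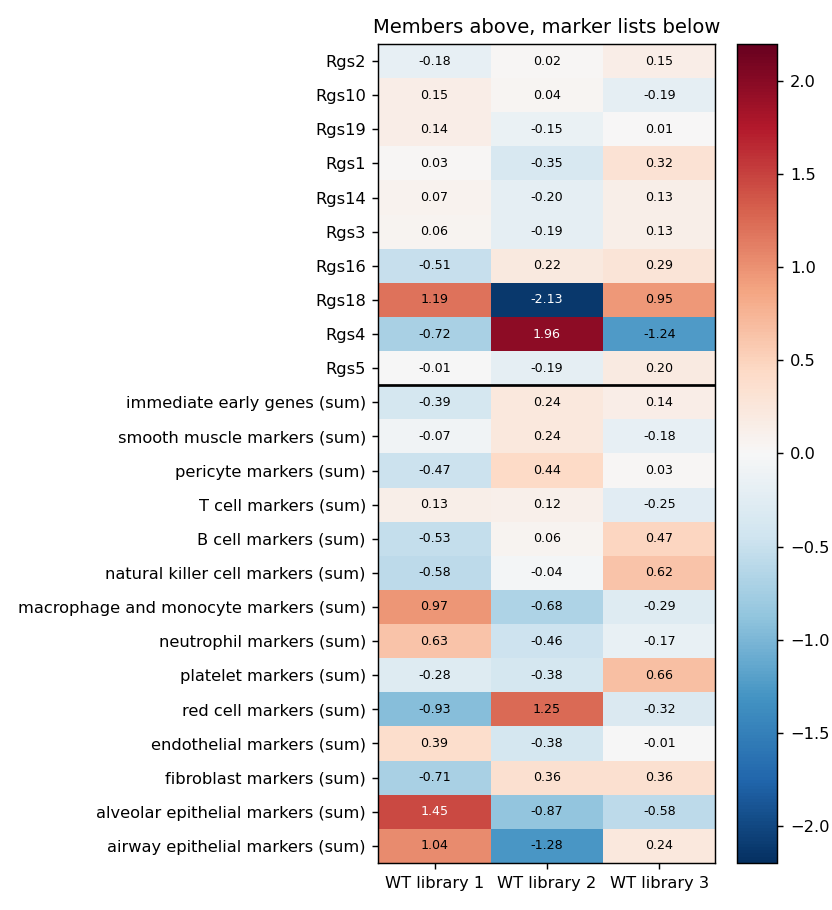
log2 CPM minus the own mean over the 3 libraries, for the 10 members and for the summed CPM of 13 marker lists and of the immediate early genes; columns are WT libraries and colour runs from blue (below the mean) to red (above). Rgs18 at -2.13 and Rgs4 at 1.96, both in library 2, are the widest values of the members, and alveolar epithelial markers in library 1, at 1.45, the widest of the lists.

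By the smallest root mean square difference of these deviations, the genes most like each member were sought among 137 listed genes with at least 30 counts in every library. Rgs2 was closest to Gna13, a G12 family alpha subunit, at 0.0208, and Rgs14 and Rgs3 were closest to Arhgef12, which carries an RGS-homology domain, at 0.0142 and 0.0235. Rgs16 was closest to Junb, at 0.0725, and Rgs1 to the gamma subunit Gng2, at 0.0755. Rgs10 was closest to the adenylyl cyclase Adcy6, at 0.0512 and Rgs19 to Gpsm2, at 0.0379. For Rgs5, with 25 to 30 counts per library, counting error exceeds such distances, and no gene is named. Counting error was not set against the distances of the other members, and it is not small beside any of them. In library 1 the exact Poisson intervals of Rgs16 and Rgs14 ran from 3.22 to 5.09 and from 25.5 to 30.3 CPM. Those of Rgs2, Rgs3 and Rgs19 ran from 102 to 111.3, from 58.2 to 65.3 and from 35.9 to 41.5 CPM. The second gene for Rgs16, Cxcr5, lay at 0.0776. The genes named above are therefore nearest by value only. The nearest genes to Rgs4 and Rgs18 were the globin gene Hbb-bs and the club cell gene Scgb1a1, but at 0.652 and 0.636 neither was close. These distances rest on 3 libraries each.

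The remaining RGS genes were lower as a set. Of these 11 genes, 4 reached a mean of 1 CPM and 1 reached 10, and 2 had no count. Rgs12, the large R12 relative of Rgs14, had 13.9, 12.1 and 18.9 CPM. The R7 genes Rgs6, Rgs9 and Rgs11 had means of 5.82 ± 0.923, 5.01 ± 3.01 and 3.65 ± 1.24 CPM (SD, n = 3), and Rgs7 had 0, 1 and 8 counts. Rgs9, the RGS protein of photoreceptors and striatum, had 8.31, 2.40 and 4.33 CPM and was lowest in library 2. Rgs17, Rgs20 and Rgs22 each had a mean below 0.5 CPM. Of the 7 genes with enough counts to test, 5 varied between libraries, near the 70.0% of all genes tested.

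All 21 RGS genes together had 398, 367 and 437 CPM, and the 10 members held 91.7%, 93.3% and 92.1% of these counts. The R4 group held 62.7%, 66.0% and 68.5% in libraries 1, 2 and 3, with 95% Wilson intervals of 61.6 to 63.7%, 64.9 to 67.1% and 67.4 to 69.5%. The mean was 65.7% ± 2.92 (SD, n = 3). The R12 group held 21.6% ± 1.54, the RZ group 8.95% ± 0.774 and the R7 group 3.66% ± 0.777. Weighted per kilobase of exon, R4 held 50.5% ± 4.37, R12 32.3% ± 3.11 and RZ 15.0% ± 1.23. Rgs2 alone took 30.3% ± 3.35 of all RGS counts.

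Among the alpha subunits, the Gi family had the highest sum, at 502 ± 19.1 CPM (SD, n = 3), most of it from Gnai2. The median of its genes' means was 3.08 CPM, below the 16.3 CPM of the Gq family and the 39.2 CPM of the G12 and Gs families. Gnai2, the main Gi subunit of leukocytes, had 395, 390 and 419 CPM, and Gnai3 80.0, 79.9 and 75.4 CPM. Per kilobase, Rgs2 lay below Gnai2 by a log2 ratio of -1.67 ± 0.14 and Rgs10 by -2.03 ± 0.23 (SD, n = 3), in each library. Per kilobase of coding sequence the ratio of Rgs2 to Gnai2 was -0.98. Of the 8 Gi family genes 3 reached a mean of 10 CPM. Of the 4 Gq family genes 3 did, and of the 4 G12 and Gs family genes 3 did. Gnaq, which couples receptors to phospholipase C, had 30.6 ± 4.81 CPM, its relative Gna11 19.7 ± 1.78 CPM, and Gna15, the Gq subunit of blood cells, 12.9 ± 3.58 CPM. Gna13 led the G12 and Gs families at 106 ± 13.8 CPM, followed by Gnas at 65.3 ± 2.04 CPM.

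**Figure D5:**
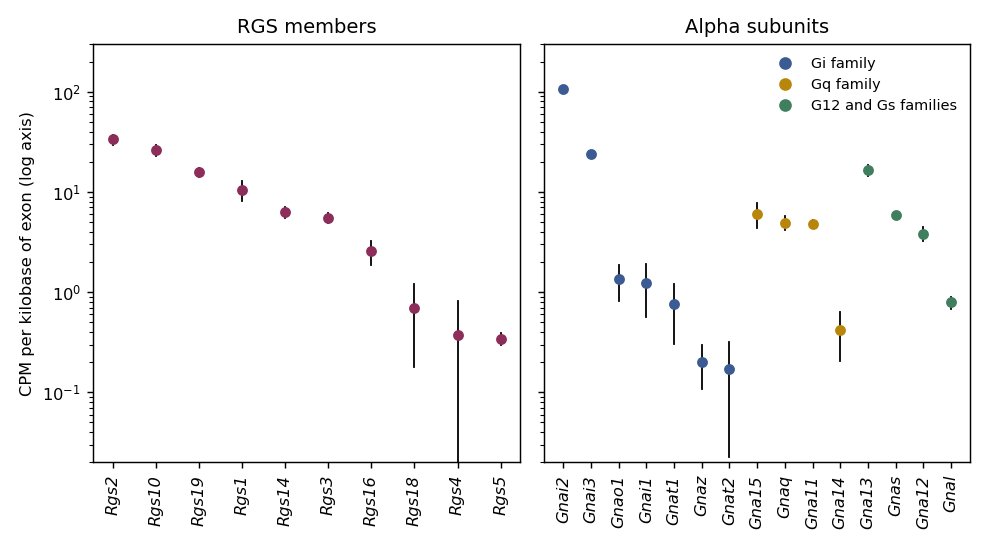
CPM per kilobase of exon (log axis) of the 10 members on the left and of the alpha subunits with a count on the right; points are means of 3 libraries and bars are ± 1 SD, and the bar of Rgs4 runs off the axis because its SD exceeds its mean. Gnai2 at 106 is the highest point, and Rgs2 at 33.4 and Rgs10 at 26.0 lie in the range of Gnai3 at 24.1.

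Beta and gamma subunits were led by Gnb1 at 169 ± 12.1 CPM and Gnb2 at 60.6 ± 8.29 CPM (SD, n = 3). Gnb5, the partner that R7 proteins need, had 1.53, 0.926 and 1.30 CPM. Of 12 G protein-coupled receptors of leukocytes 10 reached a mean of 10 CPM, led by the chemokine receptors Ccr7 at 208 ± 45.7 CPM and Cxcr4 at 164 ± 11.3 CPM. Of 12 receptors of smooth muscle 2 did, the thrombin receptor F2r at 50.9 ± 1.81 CPM and the endothelin receptor Ednra at 12.2 ± 2.43 CPM. Between libraries, 11 of the 12 leukocyte receptors and 7 of the 10 smooth muscle receptors with enough counts varied beyond counting error, where 70.0% of all genes tested did.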

How the data were processed

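The 3 libraries were read from 1 table of raw counts that the authors deposited for 48709 mouse Ensembl genes. STAR 2.6.1d, Trimmomatic 0.38, FastQC, DESeq2 1.18.1 and featureCounts 1.6.3 are named, per the submitters' processing notes, beside hg38 and GRCh38, human builds. The sources used here give neither their order nor the strand option. The table's columns are numbered controls 1 to 3 and were matched by number to the titles WT 1 to 3, the 1 group in the labels. All 21 RGS genes have the same coordinates in the table as in the mouse annotation GENCODE M21 on GRCm38, which gave exon and coding lengths.

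Each level is in CPM, a count scaled to 1000000 counts in its library, and in CPM per kilobase of the union of exons where genes are compared. Variation between libraries was tested on the counts by chi-square homogeneity, after TMM scaling of library sizes with edgeR 4.0.16 in R 4.3.3, with Benjamini-Hochberg adjustment over 23317 genes with at least 10 counts and a threshold of 0.05. On simulated counts for these 3 libraries with 23356 genes tested, it recovered 92.5% of genes changed by 1.5-fold. Of its 213 calls there, 18 were of unchanged genes. The simulated counts held counting error alone, without the spread seen between the real libraries. The changed genes all came from genes with higher total counts than Rgs4, Rgs5 and Rgs18, so the recovery does not cover these 3 members. Spread is the edgeR biological coefficient of variation. Intervals are 95% exact Poisson intervals for CPM and 95% Wilson intervals for shares. Both cover counting error within 1 library only. The sources used here also give no molecular identifiers for the reads. The depth was 18896263, 18355813 and 16877297 counts, and 3 counts equal 0.159, 0.163 and 0.178 CPM. Promoters are those of RefSeq on GRCm38.p6.

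The members, lists and tests were chosen with earlier results of these data known. Genes named beside the members are the 11 other RGS genes, the 2 highest genes of each list by mean CPM, Acta2 and Cspg4, and for each member the 2 listed genes most like it over the libraries. Cnn1, Des, Actg2, Lmod1, Smtn, Cd28, Jun, Dusp1, Ppbp, Higd1b, Cox4i2, Itgam, Gna15, Gnb5, Plcb4, Gm5763 and Gm28513 fall outside this rule. They were named after their values were seen, and not every gene the rule takes is printed. Of 197 listed symbols, 196 were matched by symbol and 1 by Ensembl ID. Alternatives were DESeq2 1.42.0 size factors, plain totals, totals without mitochondrial genes and microRNA genes, other count minimums, other lengths and leaving out each library. Coding length from the annotation and the scalings of the highest and lowest library were added after the data were seen.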

Additional observations from a re-analysis of the deposited data

How the results depend on the processing

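No paired analysis was possible because the labels give 1 group. The number of genes that varied between libraries was 16333, and 12685 to 17769 with DESeq2 size factors, plain totals or other count minimums. It was 8275 to 12273 when 1 library was left out, the lowest without library 1. The number of varying members was 9 under each of those scalings and minimums and 5 to 9 when 1 library was left out. It was 5 without library 1 and 5 without library 2, and each of these fits compares 2 libraries in place of 3. The order of the members kept 7 of 9 neighbours, 4 with the longest transcript and 7 to 9 when 1 library was left out. The share of the R4 group, 65.7%, was 50.5% per kilobase of exon and 64.3 to 67.2% when 1 library was left out. Of 30 member levels in CPM under other scalings, 8 moved by more than their SD, all with totals that leave out mitochondrial and microRNA genes, where Rgs2 had 159 CPM in place of 121 and Rgs1 95.9 in place of 72.8. Of 20 levels per kilobase under other lengths 15 did. Members highest in library 3 were 6 by CPM, 3 with TMM or DESeq2 scaling and 4 with those totals. Coding length from protein sequences was not run. Members under 100 counts, Rgs4, Rgs5 and Rgs18, are limited by depth.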

Other observations

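Transcripts of most other proteins that carry an RGS-homology domain were abundant in these libraries. Of 14 genes with such a domain, 13 reached a mean of 10 CPM, where 35.8% of nuclear protein-coding genes did. Arhgef1 had 491, 548 and 557 CPM, and Adrbk1, the receptor kinase GRK2, had 239, 268 and 271 CPM. The 14 genes summed to 1419 ± 93.0 CPM (SD, n = 3). Of 5 genes with a GoLoco motif, which binds inactive Gi, 2 reached a mean of 10 CPM, near that share. Gpsm3 was the highest at 37.0 ± 4.15 CPM and Gpsm1 followed at 17.1 ± 2.86 CPM.

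Among 13 effectors of G proteins, 8 reached a mean of 10 CPM, where 35.8% of nuclear protein-coding genes did. Adcy7, an adenylyl cyclase of blood cells, led at 159 ± 16.9 CPM, and Plcb2, a phospholipase C of blood cells, followed at 48.6 ± 6.04 CPM. Plcb4 had 25.1 ± 4.19 CPM (SD, n = 3). Of the 13 effectors, 12 varied between libraries beyond counting error in the chi-square test, where 70.0% of all genes tested did.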
